A study of Homo sapiens with 8 samples.

Results

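The comparison described here was that of 2 untreated human lymphoma cell lines, HT and SUDHL6, each represented by 2 RNA sequencing libraries of cells kept for 96 hours (day 4) with DMSO, the solvent. Its members were the 4 DMSO libraries among the 8 of the series; the other 4 held the same lines with iEZH, which the series title names as a small molecule inhibitor of PRC2. Both lines are labelled as diffuse large B cell lymphoma, and both were cultured in RPMI GlutaMAX, to which fetal bovine serum, penicillin and streptomycin had been added. Expression in their total RNA was deposited as FPKM, that is fragments scaled to gene length and to the mapped reads of the library, in a separate table for each line.

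Diffuse large B cell lymphoma is a cancer of mature B cells, and many of its cell lines resemble B cells of the germinal centre. There, B cells divide fast, mutate their antibody genes, and are held in that state by the repressor BCL6, while the surface receptor CD20 and the antigen receptor subunits CD79A and CD79B mark the B lineage. PRC2, with its catalytic subunit EZH2, trimethylates lysine 27 of histone H3 and keeps differentiation genes of these cells silent.

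The 4 DMSO libraries held 77232993 and 81858662 reads for HT and 94821806 and 65345993 for SUDHL6. Joining the tables by gene symbol gave 12325 genes, of which 12036 spanned 300 bp or more and lay outside the Y chromosome and XIST. Of these, 10954 reached 1 FPKM in at least 2 of the 4 libraries and were tested. Across these genes the libraries of a line correlated on the log2(FPKM + 1) scale at 0.989 for HT and 0.987 for SUDHL6, and libraries of different lines at 0.83 to 0.85; genes are not independent replicates. Genes spanning under 300 bp, mostly small RNAs, took 21.0% of the FPKM of SUDHL6 replicate 2 and 36.6% to 41.4% of that of the other libraries, and were left out. The labels do not say that the libraries of a line came from separate cultures, so p-values measure only the spread between these libraries, which may be technical. Each line has its own table, and whether both tables share a scale is not given in the sources used here, so line and table cannot be told apart.

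The lines differed at many genes. At an adjusted p of 0.05 and a log2 difference of at least 1 in either direction (limma, Benjamini-Hochberg), 2409 of the 10954 genes tested (22%) were called, with 920 (8.4%) higher in SUDHL6 and 1489 (13.6%) higher in HT. Without the fold threshold, 6049 genes (55.2%) passed, and 6670 (60.9%) had an unadjusted p under 0.05. The libraries of the lines did not overlap at 8579 genes (78.3%). The split between directions depended on the scaling: SUDHL6 was the higher line at 38.2% of the called genes on the deposited values, at 47.6% after median-ratio rescaling and at 48.6% after quantile normalization. The median log2 difference over all genes tested was -0.14 (SUDHL6 minus HT), with a standard deviation of 1.03 across genes, and medians of gene lists are given relative to it. Differences beyond 3 on the log2 scale were found in 117 called genes higher in SUDHL6 and in 108 higher in HT. Among the called genes, 226 lay under 1 FPKM in both HT libraries and 291 under 1 FPKM in both SUDHL6 libraries.

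**Figure D1:**
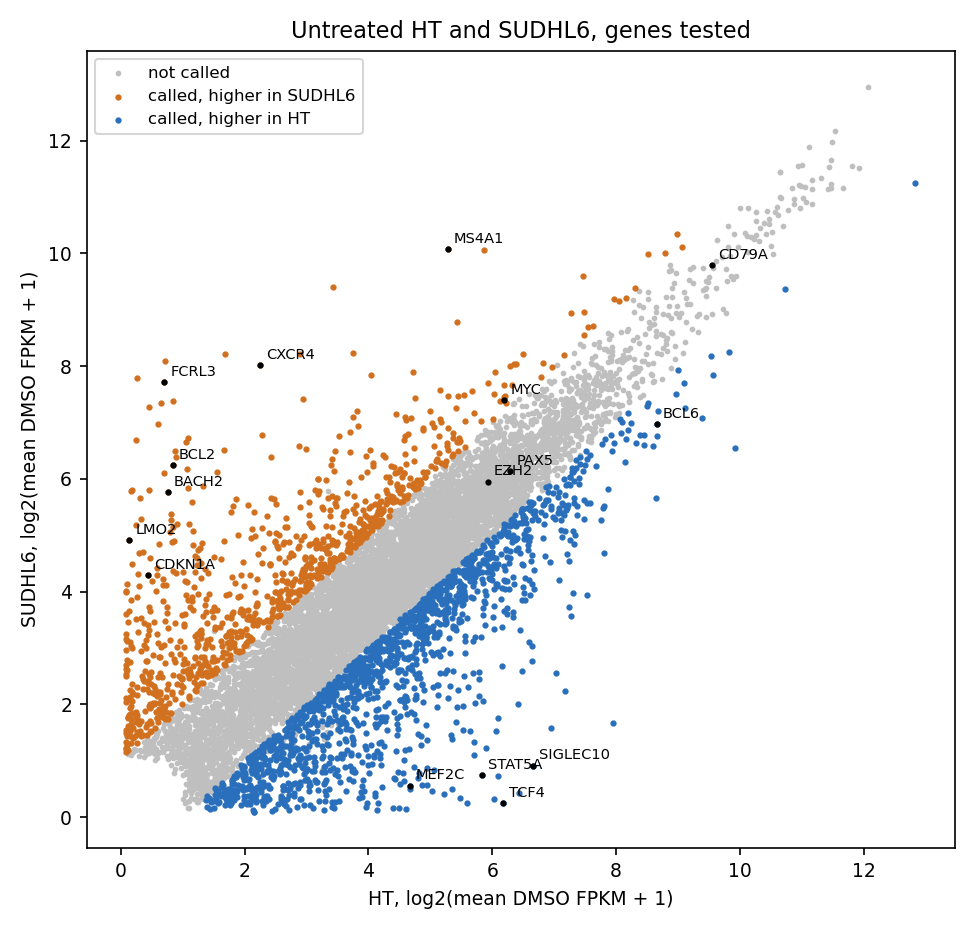
Mean expression of the 10954 genes tested in untreated HT (horizontal axis) and SUDHL6 (vertical axis), both as log2(mean FPKM + 1). Each point is a gene, orange where it was called higher in SUDHL6 (920 genes), blue where called higher in HT (1489 genes) and grey where not called; the B lineage genes CD79A and PAX5 lie near the diagonal, while BCL2 and LMO2 lie near the left edge and TCF4 and STAT5A near the lower one.

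Both lines carried the B lineage genes that their label implies. CD79A, which couples the antigen receptor to its kinases, stood at 776 and 724 FPKM in HT and 967 and 798 in SUDHL6. PAX5, the transcription factor that maintains B cell identity, stood at 78.8 and 75.5 FPKM in HT and 72.6 and 65.8 in SUDHL6. Neither was called, with log2 differences of 0.23 for CD79A and -0.16 for PAX5. MME, which encodes the germinal centre antigen CD10, stood at 49.985 and 59.4 FPKM in HT and 44.2 and 57.0 in SUDHL6, with overlapping libraries.

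Among other surface receptors of B cells, CD20 and Fc receptor-like genes were higher in SUDHL6. Of the 40 receptors listed, 30 were tested; 12 of them were called higher in SUDHL6 and 2 higher in HT, against 8.4% and 13.6% of all genes, and 16 were not called. The list had a median 0.79 above that of all genes. Of the 30 tested, 2, FCRL3 and FCRL5, were under 1 FPKM in both HT libraries and 1 in both SUDHL6 libraries. They passed the filter through the other line alone, which fixed the direction of their difference. MS4A1, which encodes CD20, the target of rituximab, measured 874 and 1284 FPKM in SUDHL6 and 35.2 and 40.5 in HT, a mean 28.5-fold higher (log2 difference 4.77 ± 0.21 SE, adjusted p = 1.49e-05). The Fc receptor-like genes went the same way. FCRL3 measured 178 and 242 FPKM in SUDHL6 against 0.566 and 0.677 in HT, FCRL2 measured 90.4 and 128 against 3.15 and 4.58, and FCRL5 measured 14.7 and 28.1 against 0.112 and 0.152. CD83, a marker of activated B cells, measured 89.0 and 76.9 FPKM in SUDHL6 and 4.56 and 4.23 in HT. CD79B, the partner of CD79A, was called as well, at 1151 and 876 FPKM in SUDHL6 and 342 and 390 in HT. In the opposite direction, the inhibitory Fc receptor FCGR2B measured 9.83 and 12.1 FPKM in HT and 0.883 and 1.26 in SUDHL6. Its difference on the log2 scale was -2.53 ± 0.16 (SE, adjusted p = 4.70e-05), and is uncertain because FCGR2B has a near-identical neighbour, FCGR2C.

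The largest differences were those of genes abundant in 1 line and near the detection limit in the other. Among genes higher in SUDHL6, APOD, a secreted lipid carrier, had the largest log2 difference, at 179 and 259 FPKM against 0.110 and 0.293 in HT (7.497 ± 0.20 SE, adjusted p = 3.73e-06). TCL1B, a relative of the AKT coactivator TCL1A, measured 182 and 125 FPKM in SUDHL6 and 0.317 and 0.439 in HT. TCL1A itself was high in both lines, at 376 and 280 FPKM in SUDHL6 and 169 and 185 in HT, and missed the fold threshold (log2 difference 0.87). Further leading genes of SUDHL6 were FCRL3, FAM129C, the actin-binding LSP1, BASP1, the platelet and leukocyte protein PLEK, C4orf34, the chitinase-like CHI3L2, the chemokine receptor CXCR4 and the leukotriene enzyme ALOX5, with log2 differences from 5.65 for ALOX5 to 7.01 for FCRL3. APOD, TCL1B, FCRL3, FAM129C, LSP1, PLEK and C4orf34 were under 1 FPKM in both HT libraries. They passed the filter through SUDHL6 alone, which fixed the direction of their difference.

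Among genes higher in HT, IGLL1, a surrogate light chain gene of B cell precursors, measured 261 and 231 FPKM against 2.16 and 2.22 in SUDHL6 (log2 difference -6.27 ± 0.13 SE, adjusted p = 2.88e-06). This value is uncertain, because IGLL1 shares sequence with the immunoglobulin lambda constant region and with IGLL5, which differed in the opposite direction, at 1119 and 1016 FPKM in SUDHL6 and 60.7 and 54.2 in HT. MT2A, a metal-binding metallothionein with near-identical relatives, measured 98.0 and 72.6 FPKM in HT and 0.372 and 0.312 in SUDHL6. The sialic acid receptor SIGLEC10 measured 96.4 and 104 FPKM in HT and 0.945 and 0.824 in SUDHL6. The remaining leading genes of HT were TCF4, SCRN1, the actin-severing GSN, the kinase CAMK1, the receptor phosphatase PTPRJ, the homeobox repressor TGIF1, STAT5A, the enolase ENO2 and GTF2IRD1, with log2 differences from -5.92 for TCF4 to -4.86 for GTF2IRD1. MT2A, SIGLEC10, TCF4, SCRN1, CAMK1, PTPRJ, TGIF1, STAT5A and GTF2IRD1 were under 1 FPKM in both SUDHL6 libraries. They passed the filter through HT alone, which fixed the direction of their difference. The leading genes of both lines were chosen by the size of their difference among genes whose libraries did not overlap between the lines.

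**Figure D2:**
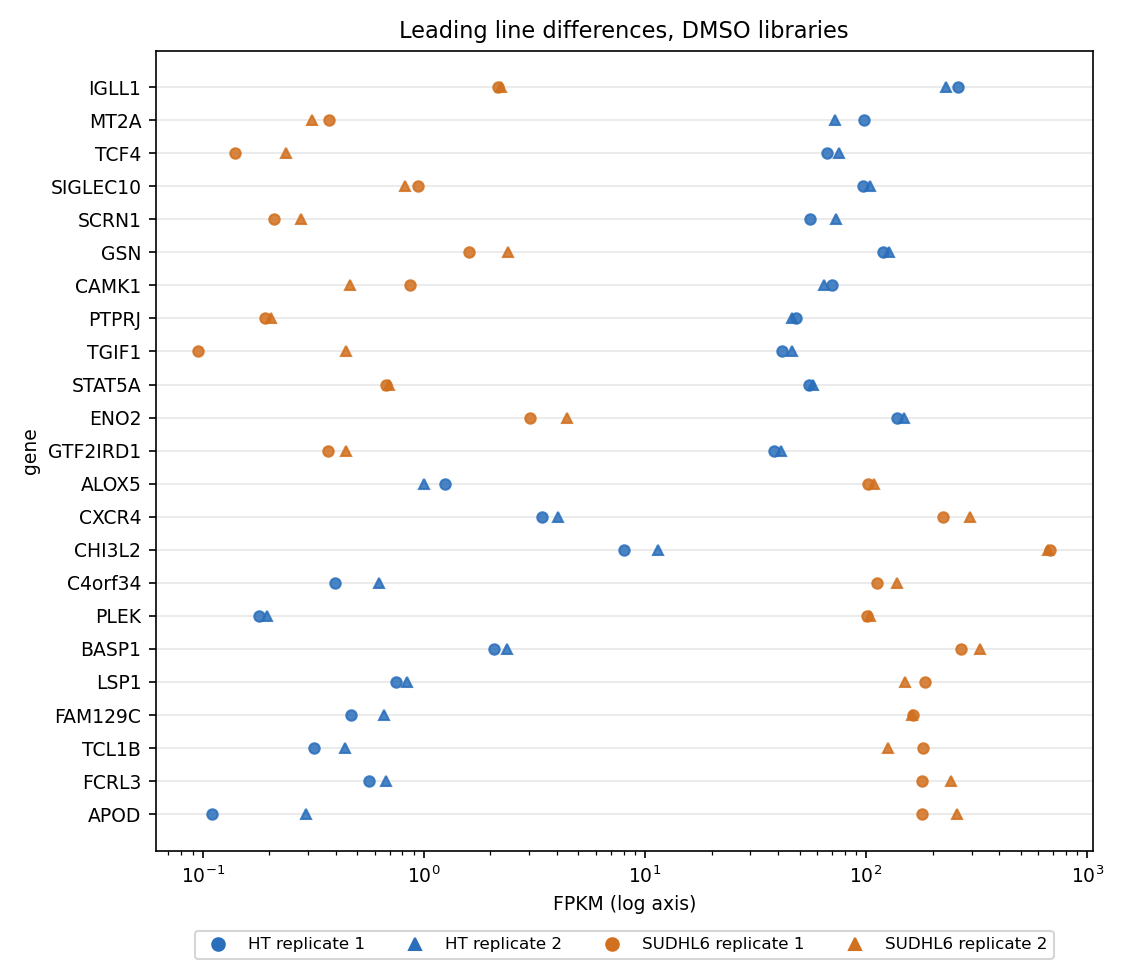
FPKM of the leading genes of each direction named in the text (vertical axis) in the 4 DMSO libraries, on a logarithmic horizontal axis. Circles are replicate 1 and triangles replicate 2, blue for HT and orange for SUDHL6; the genes were chosen so that the colours do not overlap, and CHI3L2 reached 680 and 666 FPKM in SUDHL6 against 8.08 and 11.4 in HT.

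The transcription factors that shape the germinal centre B cell were divided between the lines. Of 39 factors listed, 35 were tested; 11 were called higher in SUDHL6 and 8 higher in HT, against 8.4% and 13.6% of all genes. Of those tested, 6 were under 1 FPKM in both HT libraries and 2, TCF4 and MEF2C, in both SUDHL6 libraries. These genes passed the filter through the other line alone, which fixed the direction of their difference. BCL6 was 3.22-fold higher in HT, at 386 and 418 FPKM against 114 and 135 in SUDHL6 (log2 difference -1.68 ± 0.16 SE, adjusted p = 0.000248). POU2AF1, the B cell coactivator of octamer-binding factors, measured 662 and 680 FPKM in HT and 123 and 147 in SUDHL6. TCF4, the E protein E2-2, stood at 66.5 and 75.4 FPKM in HT and 0.140 and 0.239 in SUDHL6, whereas the E protein TCF3 was at 218 and 219 in HT and 216 and 234 in SUDHL6. MEF2C, which supports B cell proliferation, measured 23.2 and 25.6 FPKM in HT and 0.428 and 0.516 in SUDHL6. EBF1, which specifies the B lineage with PAX5, measured 28.1 and 28.7 FPKM in HT and 7.86 and 9.77 in SUDHL6. ID2, an inhibitor of E proteins, measured 51.1 and 52.9 FPKM in HT and 7.35 and 8.95 in SUDHL6.

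The factors higher in SUDHL6 were led by BACH2 and LMO2. BACH2, a repressor of plasma cell differentiation, measured 44.0 and 62.4 FPKM in SUDHL6 and 0.498 and 0.883 in HT (log2 difference 4.99 ± 0.20 SE, adjusted p = 1.08e-05). LMO2, a bridging factor used as a germinal centre marker in lymphoma pathology, measured 29.4 and 28.9 FPKM in SUDHL6, while the HT libraries were at the floor value of 0.0613 and at 0.136. IKZF2, the Ikaros family member Helios, measured 24.8 and 39.9 FPKM in SUDHL6 and 0.617 and 0.846 in HT. AFF3, a nuclear protein of lymphoid cells, measured 9.25 and 10.7 FPKM in SUDHL6, with HT at the floor and at 0.0968. BACH2, LMO2, IKZF2 and AFF3 passed the filter through SUDHL6 alone, which fixed the direction of their difference. Of the 39 factors, 3 were listed in the SUDHL6 table alone, among them IRF4, which drives plasma cell differentiation, at 44.7 and 40.6 FPKM, and BATF at 22.1 and 10.3 FPKM. PRDM1, the plasma cell repressor, was not analysed here.

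Germinal centre effectors and markers also went both ways, with 5 of 29 tested genes called higher in SUDHL6 and 9 higher in HT. Of all genes, 8.4% and 13.6% were called in these directions. The list median lay 0.02 from that of all genes. On the list were 34 genes, and 2 of those tested, HDAC9 among them, were under 1 FPKM in both HT libraries. They passed the filter through SUDHL6 alone, which fixed the direction of their difference. SERPINA9, the germinal centre protease inhibitor centerin, measured 103 and 94.4 FPKM in HT and 6.24 and 8.12 in SUDHL6 (log2 difference -3.61 ± 0.16 SE, adjusted p = 1.29e-05). EML6 and VNN2 were called higher in HT too, with log2 differences of -2.52 and -2.08. HDAC9, a histone deacetylase, measured 7.63 and 7.77 FPKM in SUDHL6, with HT at the floor and at 0.0815. SWAP70, which links B cell receptors to the cytoskeleton, measured 296 and 298 FPKM in SUDHL6 and 89.0 and 89.0 in HT. GCET2, a germinal centre signalling adaptor, and BCL7A, a subunit of chromatin remodellers, were called higher in SUDHL6 with log2 differences of 1.39 and 2.20.

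Genes that mark the activated B cell type of this lymphoma did not fall on 1 side either. Of 27 listed genes, 19 were tested, 6 were called higher in SUDHL6 and 4 higher in HT, against 8.4% and 13.6% of all genes. Of those tested, 2 were under 1 FPKM in both HT libraries, IL16 among them, and 3 in both SUDHL6 libraries, namely PTPRJ, MAP3K8 and CYB5R2. These genes passed the filter through the other line alone, which fixed the direction of their difference. PIM1, a serine/threonine kinase, measured 288 and 304 FPKM in SUDHL6 and 5.88 and 6.93 in HT, a mean 46.2-fold higher (log2 difference 5.33 ± 0.14 SE, adjusted p = 3.48e-06). The NF-kB cofactor NFKBIZ measured 32.6 and 36.4 FPKM in SUDHL6 and 5.34 and 5.54 in HT. RAB7L1 and the cytokine IL16 were called higher in SUDHL6 as well, with log2 differences of 3.38 and 3.17. Higher in HT were PTPRJ, at 48.0 and 46.4 FPKM against 0.191 and 0.203 in SUDHL6, the kinase MAP3K8, at 11.7 and 15.7 against 0.407 and 0.303, and the reductase CYB5R2, at 13.9 and 14.1 against 0.995 and 0.931.

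Of 22 genes of the plasma cell programme, 15 were tested. Of these, 6 were called higher in HT and 2 higher in SUDHL6, against 13.6% and 8.4% of all genes. The list median lay 0.78 below that of all genes, and 1 of those tested was under 1 FPKM in both SUDHL6 libraries. MZB1, an antibody folding chaperone, measured 223 and 242 FPKM in HT and 68.3 and 43.4 in SUDHL6. HSP90B1, the chaperone of the endoplasmic reticulum, measured 161 and 166 FPKM in HT and 51.4 and 38.6 in SUDHL6, and DERL3, which helps to clear misfolded proteins, was at 19.8 and 21.3 against 5.85 and 5.62. ITM2C had the largest difference of these, -2.74 on the log2 scale. IGJ, which encodes the joining chain of secreted antibodies, went the other way, at 427 and 457 FPKM in SUDHL6 and 48.7 and 35.6 in HT, as did TNFRSF17, the survival receptor BCMA, at 72.0 and 53.4 against 9.09 and 7.18.

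Signalling from the B cell receptor was represented by 45 genes, of which 41 were tested. Of these, 6 were called higher in SUDHL6 and 10 higher in HT, against 8.4% and 13.6% of all genes. Under 1 FPKM in both HT libraries were 2, PRKCB and VAV3. They passed the filter through SUDHL6 alone, which fixed the direction of their difference. The median of the list lay 0.02 above that of all genes. The proximal genes BTK, SYK and BLNK were not called, with log2 differences from -0.52 for BLNK to -0.10 for BTK. FYN, a Src family kinase, measured 73.1 and 67.7 FPKM in HT and 4.64 and 6.22 in SUDHL6 (log2 difference -3.48 ± 0.16 SE, adjusted p = 1.52e-05). PTPN6, the inhibitory phosphatase SHP-1, measured 126 and 117 FPKM in HT and 20.2 and 23.6 in SUDHL6. The exchange factor RASGRP1 and the transcription factor NFATC1 were higher in HT, by log2 differences of -2.50 and -1.97. PRKCB, the protein kinase C that activates NF-kB below BTK, measured 8.99 and 15.4 FPKM in SUDHL6 and 0.648 and 0.718 in HT. VAV2, VAV3 and SYNE2 were also called higher in SUDHL6, with log2 differences of 2.18, 1.85 and 1.84.

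Apoptosis regulators differed most at BCL2. Of 22 listed genes of the BCL2 family, 17 were tested. Of these, 2 were called higher in SUDHL6 and 4 higher in HT, against 8.4% and 13.6% of all genes. Of those tested, 1, BCL2, was under 1 FPKM in both HT libraries and 1, BCL2L2, in both SUDHL6 libraries. Each passed the filter through the other line alone, which fixed the direction of its difference. BCL2, the inhibitor of mitochondrial apoptosis, measured 76.4 and 73.5 FPKM in SUDHL6 and 0.914 and 0.656 in HT, a mean 95.5-fold higher (log2 difference 5.42 ± 0.13 SE, adjusted p = 3.14e-06). The related survival genes MCL1, at 146 and 162 FPKM in HT and 163 and 176 in SUDHL6, and BCL2L1, at 38.1 and 43.01 against 45.1 and 29.8, were not called. BCL2L2, which encodes BCL-W, measured 11.3 and 13.3 FPKM in HT and 0.675 and 0.872 in SUDHL6. Among the BH3-only genes that promote cell death, BMF measured 112 and 131 FPKM in SUDHL6 and 11.3 and 15.2 in HT, while BIK was at 39.3 and 35.8 in HT and 4.65 and 5.52 in SUDHL6. HRK, another BH3-only gene, was listed in the SUDHL6 table alone, at 16.5 and 18.5 FPKM.

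Of 33 death receptor and caspase genes, 22 were tested, 6 were called higher in HT and 0 higher in SUDHL6, against 13.6% and 8.4% of all genes, and the list median lay 0.44 below that of all genes. By unadjusted p, 16 of the 22 passed 0.05 in limma, against 60.9% of all genes. Of those tested, 1 was under 1 FPKM in both SUDHL6 libraries. CASP6, an effector caspase, measured 15.4 and 15.5 FPKM in HT and 1.62 and 1.26 in SUDHL6. CFLAR, the caspase 8 inhibitor cFLIP, measured 30.3 and 37.7 FPKM in HT and 4.47 and 3.69 in SUDHL6, and BIRC3, an inhibitor of apoptosis and NF-kB target, was at 144 and 174 against 44.6 and 54.1. TNFRSF10B, a receptor for the death ligand TRAIL, was higher in HT, at 26.8 and 31.7 FPKM against 10.2 and 8.85. Another 5 genes of the list stood in the HT table alone, of which CASP4, an inflammatory caspase, was the highest at 12.9 and 15.3 FPKM.

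Of the cell cycle genes, 7.69% were called for DNA replication and S phase and 17.9% for G2 and mitosis, against 22% of all genes. Of 39 genes of DNA replication and S phase, all tested, 2 were called higher in SUDHL6 and 1 higher in HT. Of all genes, 8.4% and 13.6% were called in these directions. The list median lay 0.13 above that of all genes. Of 39 genes of G2 and mitosis, all tested, 7 were called higher in HT and 0 higher in SUDHL6, with a median 0.47 below that of all genes; 26 of them passed an unadjusted p of 0.05 in limma, against 60.9% of all genes, and 13.6% of all genes were called higher in HT. PCNA, the replication clamp, measured 370 and 363 FPKM in HT and 329 and 319 in SUDHL6 and was not called. RRM2, a subunit of ribonucleotide reductase, measured 94.1 and 89.9 FPKM in SUDHL6 and 25.8 and 25.4 in HT. CDK1, the kinase that drives mitosis, measured 279 and 304 FPKM in HT and 120 and 111 in SUDHL6. The spindle checkpoint gene MAD2L1 was at 102 and 89.4 FPKM in HT and 32.8 and 24.98 in SUDHL6, and the centromere motor CENPE at 25.3 and 26.95 against 6.59 and 7.93. MKI67, the proliferation antigen, was not called, at 83.9 and 88.9 FPKM in HT and 101 and 142 in SUDHL6.

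Of 24 genes of G1 and CDK inhibition, 20 were tested, and 2 were called in each direction. Of all genes, 8.4% were called higher in SUDHL6 and 13.6% higher in HT. Among those tested, 1, CDKN1A, was under 1 FPKM in both HT libraries. It passed the filter through SUDHL6 alone, which fixed the direction of its difference. CDKN1A, the CDK inhibitor p21, measured 24.6 and 12.5 FPKM in SUDHL6 and 0.251 and 0.465 in HT (log2 difference 3.78 ± 0.29 SE, adjusted p = 0.000107). CDKN2A and MTAP, which are lost in part of these lymphomas, were measured in both lines. CDKN2A stood at 68.0 and 52.0 FPKM in HT and 99.8 and 74.3 in SUDHL6. Neither CDKN2A nor MTAP was called.

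No gene of PRC2, the complex that iEZH inhibits, met both thresholds between the untreated lines. EZH2 measured 63.6 and 55.9 FPKM in HT and 63.1 and 58.7 in SUDHL6, with overlapping libraries and a log2 difference of 0.03 ± 0.14 (SE, adjusted p = 0.867). Of 14 genes of PRC2 subunits, 13 were tested and 0 were called in either direction, against 22% of all genes. An unadjusted p of 0.05 in limma was passed by 8 of the 13, near the 60.9% of all genes. EED, the subunit that reads trimethylated lysine 27, measured 51.4 and 52.2 FPKM in HT and 31.8 and 24.0 in SUDHL6, a difference of -0.88 that stayed under the fold threshold. SUZ12 stood at 74.3 and 74.4 FPKM in HT and 44.6 and 50.1 in SUDHL6, and EZH1, the alternative methyltransferase, at 15.6 and 17.4 against 22.5 and 26.99. Of 21 tested genes of PRC1 and of the lysine 27 demethylases, 2 were called in each direction. Of all genes, 8.4% were called higher in SUDHL6 and 13.6% higher in HT. PHC1 had the largest difference, at 18.8 and 17.9 FPKM in HT and 2.57 and 3.30 in SUDHL6. CBX2, a reader of the mark, was at 20.5 and 19.97 in SUDHL6 and 6.95 and 6.43 in HT.

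Among 32 other chromatin regulators often altered in lymphoma, all tested, 7 (21.9%) were called higher in SUDHL6, against 8.4% of all genes, and 0 higher in HT, with a median 0.38 above that of all genes. An unadjusted p of 0.05 in limma was passed by 18, against 60.9% of all genes. Of the 32, 2 were under 1 FPKM in both HT libraries and 1 in both SUDHL6 libraries. ARID5B, a DNA-binding cofactor, measured 17.4 and 26.3 FPKM in SUDHL6 and 1.12 and 1.81 in HT. SETD1B, a lysine 4 methyltransferase, measured 10.0 and 11.3 FPKM in SUDHL6 and 1.96 and 1.67 in HT. The DNA methyltransferase DNMT3A, at 7.52 and 8.17 against 1.49 and 1.78 FPKM, and the demethylase TET3, at 10.6 and 9.06 against 2.05 and 2.17, differed in the same direction; both were picked from this list after their values were seen.

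MYC, the growth regulator, measured 181 and 155 FPKM in SUDHL6 and 82.7 and 61.7 in HT (log2 difference 1.22 ± 0.19 SE, adjusted p = 0.00194). Of 37 tested genes of the MYC network and of ribosome biogenesis, 3 were called higher in SUDHL6, near the 8.4% of all genes. Only 1 was called higher in HT, against 13.6% of all genes. POLR1B, a subunit of RNA polymerase I, measured 23.9 and 17.7 FPKM in SUDHL6 and 7.19 and 6.72 in HT, while GAR1, a box H/ACA ribonucleoprotein, was higher in HT, at 76.2 and 57.4 against 22.5 and 10.8.

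Cytokine signalling set the lines apart at the STAT genes. Of 40 genes of cytokine receptors and the JAK-STAT pathway, 26 were tested. Of these, 7 were called higher in HT and 5 higher in SUDHL6, against 13.6% and 8.4% of all genes. Of those tested, 1 was under 1 FPKM in both HT libraries and 2, STAT5A among them, in both SUDHL6 libraries. These genes passed the filter through the other line alone, which fixed the direction of their difference. STAT5A measured 54.9 and 57.4 FPKM in HT and 0.675 and 0.694 in SUDHL6, a mean 82.1-fold higher (log2 difference -5.08 ± 0.12 SE, adjusted p = 2.98e-06). STAT5B, its neighbour on chromosome 17 and close relative, measured 141 and 159 FPKM in HT and 11.9 and 12.5 in SUDHL6. STAT3, the third gene of that cluster, was at 59.9 and 67.2 FPKM in HT and 10.1 and 11.3 in SUDHL6. The kinase JAK1 was also higher in HT, at 80.0 and 89.1 FPKM against 20.5 and 31.9. Receptors went in both directions. IL10RA, the ligand-binding chain for interleukin 10, measured 105 and 97.3 FPKM in HT and 15.5 and 15.5 in SUDHL6. IL4R, the receptor of interleukin 4, measured 131 and 160 FPKM in SUDHL6 and 12.02 and 14.2 in HT, and IL21R, the receptor of interleukin 21, was at 13.9 and 14.1 against 1.09 and 1.37. STAT6, which acts below IL4R, was at 116 and 100 FPKM in SUDHL6 and 74.3 and 68.7 in HT and was not called.

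Of 35 NF-kB genes and targets, 22 were tested. Of these, 6 were called higher in SUDHL6 and 3 higher in HT, against 8.4% and 13.6% of all genes, and 1 was under 1 FPKM in both HT libraries. REL, the NF-kB subunit most used in germinal centre lymphoma, measured 25.6 and 31.4 FPKM in SUDHL6 and 4.10 and 5.18 in HT (log2 difference 2.39 ± 0.16 SE, adjusted p = 6.38e-05). BCL3, a nuclear cofactor of the pathway, was higher in SUDHL6 by 1.38, and the adaptor TRAF1 was higher in HT, at 8.05 and 9.30 FPKM against 1.18 and 1.37.

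Genes that guide B cells within lymphoid tissue also differed. Of 37 homing receptors and integrins, 18 were tested. Of these, 5 were called higher in SUDHL6 and 3 higher in HT, against 8.4% and 13.6% of all genes. Of those tested, 2 were under 1 FPKM in both HT libraries and 1 in both SUDHL6 libraries. CXCR4, the chemokine receptor of the germinal centre dark zone, measured 222 and 295 FPKM in SUDHL6 and 3.43 and 4.05 in HT, a mean 69.1-fold higher (log2 difference 5.76 ± 0.17 SE, adjusted p = 5.14e-06). The integrin subunits ITGB1, at 49.3 and 58.7 FPKM in HT and 3.92 and 5.07 in SUDHL6, and ITGB2, at 55.4 and 52.8 against 5.24 and 4.68, were higher in HT. ITGAL, which pairs with ITGB2 to form LFA-1, was higher in SUDHL6 instead, at 90.4 and 89.5 FPKM against 34.3 and 41.5. In the pathway of sphingosine phosphate and GNA13, which confines B cells to the germinal centre, S1PR2 stood at 56.8 and 65.4 FPKM in HT and 53.1 and 59.9 in SUDHL6, and GNA13 at 127 and 130 against 109 and 129, with neither called. RHOH, a GTP-binding protein of blood cells, measured 83.4 and 82.2 FPKM in SUDHL6 and 0.812 and 0.910 in HT. Of the 20 tested genes of that pathway, 3 were called in each direction, against 8.4% of all genes higher in SUDHL6 and 13.6% higher in HT. Under 1 FPKM were 2 of the 20 in both HT libraries, RHOH among them, and 1, ARHGEF11, in both SUDHL6 libraries. These genes passed the filter through the other line alone.

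Interferon response genes were called in both directions. Of 54 listed genes, 31 were tested, 13 were called higher in HT and 6 higher in SUDHL6, against 13.6% and 8.4% of all genes, with a median 0.28 below that of all genes. Of the 31 tested, 7 were under 1 FPKM in both SUDHL6 libraries and so passed through HT alone; all of them but DDX58 are among the 13 called higher in HT, a call that the filter partly fixed. A further 12 were listed in the HT table alone, led by LGALS3BP at 29.7 and 36.2 FPKM and the RNA sensor IFIH1 at 13.8 and 17.5, and 1 in the SUDHL6 table alone. Of the 12, only LGALS3BP, IFIH1, USP18, IFIT5 and IFIT1 reached a mean of 1 FPKM in HT. The ubiquitin-like modifier ISG15 measured 63.0 and 50.3 FPKM in HT and 2.49 and 3.87 in SUDHL6 (log2 difference -3.80 ± 0.20 SE, adjusted p = 2.52e-05). IFI6, a mitochondrial antiviral protein, measured 19.1 and 20.9 FPKM in HT, with SUDHL6 at 0.175 and at the floor value of 0.0712. ISG20, an antiviral exonuclease, measured 39.8 and 50.03 FPKM in HT and 1.91 and 1.95 in SUDHL6, and PARP9 was at 12.8 and 16.8 against 0.161 and 0.232. BST2, the virus tether tetherin, which was picked after its values were seen, measured 138 and 139 FPKM in HT and 52.7 and 29.1 in SUDHL6.

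Other interferon genes were higher in SUDHL6. The antiviral GTPase MX2 measured 35.2 and 35.9 FPKM in SUDHL6 and 1.07 and 0.681 in HT (log2 difference 4.29 ± 0.14 SE, adjusted p = 6.82e-06). The DNA sensor IFI16 was at 127 and 146 FPKM in SUDHL6 and 12.2 and 12.8 in HT, and the nuclear body protein SP110 at 47.3 and 62.7 against 7.39 and 8.30. The oligoadenylate synthetases OAS2, at 7.57 and 11.8 FPKM against 0.999 and 1.04, and OAS1, at 8.44 and 14.6 against 2.39 and 2.64, were higher in SUDHL6 as well; OAS1 was picked after its values were seen. STAT2, which carries the interferon signal to the nucleus, was not called, with a log2 difference of 0.73.

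The promoters of these genes are shown because interferon factors bind there, at a repeat of GAAA elements called the ISRE. The 250 bases before the start site are given for 3 genes higher in HT and for OAS1, which was higher in SUDHL6, as RefSeq gives them on GRCh38.p14 and read 5′ to 3′ on the gene's strand. Capitals mark matches of GAAANNGAAA on either strand in ISG15 (chr1:1013247-1013496, plus strand), IFI6 (chr1:27672193-27672442, minus strand) and BST2 (chr19:17405631-17405880, minus strand), overlapping matches included. In OAS1 (chr12:112906712-112906961, plus strand) they mark GAAANGAAA, with 1 base between the elements.
ISG15: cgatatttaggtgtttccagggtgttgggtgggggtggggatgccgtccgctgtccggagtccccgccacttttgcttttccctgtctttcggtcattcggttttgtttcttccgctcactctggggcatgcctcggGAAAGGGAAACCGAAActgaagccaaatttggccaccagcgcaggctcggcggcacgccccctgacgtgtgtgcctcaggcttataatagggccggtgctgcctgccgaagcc
IFI6: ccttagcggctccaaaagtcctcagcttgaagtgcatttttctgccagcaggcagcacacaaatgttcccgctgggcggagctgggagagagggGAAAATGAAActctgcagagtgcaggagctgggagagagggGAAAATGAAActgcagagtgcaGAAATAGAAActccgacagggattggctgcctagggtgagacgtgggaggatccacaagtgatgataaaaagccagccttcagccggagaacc
BST2: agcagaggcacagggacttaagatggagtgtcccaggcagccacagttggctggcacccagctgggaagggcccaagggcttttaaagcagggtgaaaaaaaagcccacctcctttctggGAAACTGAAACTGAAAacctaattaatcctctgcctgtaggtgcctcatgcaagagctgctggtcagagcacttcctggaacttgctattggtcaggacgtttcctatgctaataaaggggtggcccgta
OAS1: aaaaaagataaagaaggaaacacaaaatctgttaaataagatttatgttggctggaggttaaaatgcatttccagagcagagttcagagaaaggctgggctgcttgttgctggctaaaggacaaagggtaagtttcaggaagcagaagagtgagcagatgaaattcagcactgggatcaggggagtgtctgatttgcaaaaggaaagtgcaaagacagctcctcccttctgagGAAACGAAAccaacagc

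The motif GAAANNGAAA was found in the 300-base window (250 bases before to 50 after a start) of 1255 of 35116 windows in the RefSeq table (3.57%). Of the 54 interferon genes, 42 matched an entry, and 27 of these held the motif in at least 1 window (64.3%), against 4.38% of all 27305 genes of the table. Among interferon genes called higher in HT or listed in the HT table alone, 16 of 22 held it, and among those higher in SUDHL6 or listed there alone, 0 of 4. MX2, OAS2 and IFITM2 of the latter had no entry. Among the 22, IFI44L, IFIT3, GBP1, DDX60, HERC6 and XAF1 were listed for HT alone and stayed under a mean of 1 FPKM there. The shorter spacing GAAANGAAA was searched after the OAS1 window had been read, so its count is partly fixed by that choice. It was found in 15 of the 42 genes, against 3.87% of all genes of the table. With either spacing counted, 18 of the 22 genes and 4 of the 4 held a match, against 7.83% of all genes. A match is a description of the letters and not a measured site.

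Stress genes of amino acid and protein handling included several that were higher in HT. Of 29 such genes, all tested, 9 were called higher in HT, against 13.6% of all genes, and 1 higher in SUDHL6, with a median 0.27 below that of all genes. SLC7A11, the cystine transporter, measured 14.1 and 18.5 FPKM in HT and 1.96 and 2.35 in SUDHL6, and the pseudokinase TRIB3 was at 69.3 and 90.2 against 20.5 and 15.6. DDIT3, the stress factor CHOP, varied within HT, at 63.9 and 135 FPKM, but both values lay above the 21.3 and 27.2 of SUDHL6. CBS, which makes cystathionine, was higher in HT by a log2 difference of -1.74. ATF3 was the exception, at 3.38 and 3.71 FPKM in SUDHL6 and 0.395 and 0.568 in HT, and passed the filter through SUDHL6 alone.

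Of 31 tested genes of cholesterol and fatty acid synthesis, 4 (12.9%) were called higher in HT, near the 13.6% of all genes, and 0 higher in SUDHL6, while 17 passed an unadjusted p of 0.05 in limma, against 60.9% of all genes. ECI2, an isomerase of fatty acid oxidation kept in that list, measured 65.6 and 75.3 FPKM in HT and 9.21 and 9.39 in SUDHL6, and the elongase ELOVL6 was at 21.0 and 22.4 against 2.74 and 3.70. FDFT1, which commits the pathway to sterols, was at 358 and 363 FPKM in HT and 160 and 151 in SUDHL6. Among 28 tested genes of glucose uptake and glycolysis, 3 were called higher in HT and 1 higher in SUDHL6, against 13.6% and 8.4% of all genes. The enolase ENO2 measured 138 and 148 FPKM in HT and 3.03 and 4.42 in SUDHL6, and the lactate exporter SLC16A3 was at 8.72 and 6.93 against 0.554 and 0.599, passing the filter through HT alone. TXNIP, an inhibitor of glucose uptake, was higher in SUDHL6, at 22.6 and 24.6 FPKM against 5.92 and 5.20. Among 24 tested genes of the PI3K pathway, 3 (12.5%) were called higher in HT and 0 higher in SUDHL6, with 15 past an unadjusted p of 0.05 in limma, which is also near the 13.6% and 60.9% of all genes; those called were the AKT phosphatases PHLPP2 and PHLPP1 and TSC1, with log2 differences of -1.64, -1.35 and -1.28.

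Antigen presentation genes gave 2 calls higher in SUDHL6 and 1 higher in HT among 8 tested class II genes, against 8.4% and 13.6% of all genes. The other 11 of the 19 listed were not analysed here. The gene called higher in HT was CTSS, a protease that processes antigen for class II, with a log2 difference of -1.12, and this call is not firm: the difference was -0.98 under both median-ratio and quantile scaling, -0.82 in the iEZH libraries, -0.99 without HT replicate 2 and -0.95 without SUDHL6 replicate 1, each short of the fold threshold. HLA-DQA1 measured 213 and 262 FPKM in SUDHL6 and 59.6 and 70.3 in HT. HLA genes are polymorphic and alike in sequence, so that reads of different alleles can map unequally, and this value is uncertain. CIITA, the master regulator of class II genes, stood at 12.8 and 15.3 FPKM in HT and 18.3 and 25.7 in SUDHL6 and was not called.

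**Figure D3:**
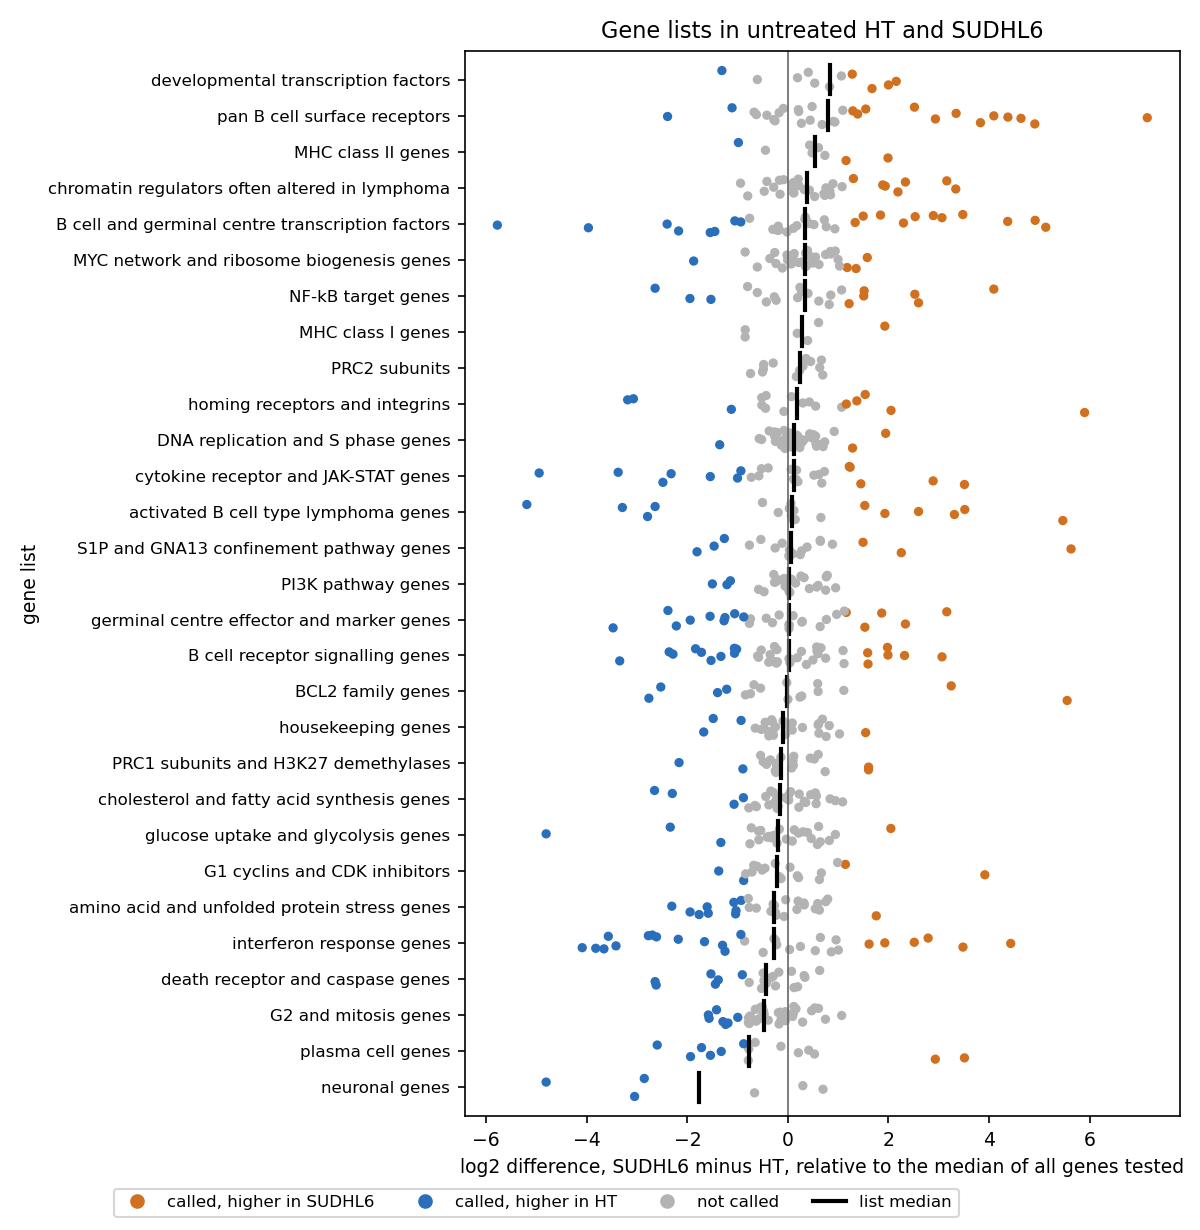
Log2 difference of each tested member (SUDHL6 minus HT, relative to the median of all genes tested, horizontal axis) for gene lists with at least 5 tested members (vertical axis, ordered by median). Points are genes, orange or blue where called and grey where not, and the black bars are list medians, which run from -1.76 for neuronal genes to 0.83 for developmental transcription factors, 0.79 for B cell receptors of the surface and -0.78 for plasma cell genes. Of the 11 tested developmental factors, 4 passed the filter through SUDHL6 alone.

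Genes of other tissues and cell types were mostly low, with exceptions in each line. Of 22 myeloid markers, 6 were listed in the HT table alone and 4 in both tables. Summed over the markers that each table lists, the level was 87.1 and 94.0 FPKM in HT and 2.84 and 3.27 in SUDHL6. The sums cover unlike sets of markers, so they give no comparison of the lines. Nearly all of the sum in HT was CD33, a sialic acid receptor, at 55.9 and 60.7 FPKM, and CLEC7A, the glucan receptor dectin-1, at 24.3 and 24.9. Neither has a value in SUDHL6. LYZ, which defines myeloid cells, was at 0.181 and 0.138 FPKM in HT, and CD14 lay between 0.152 and 0.273 in the 4 libraries. Of 22 T and NK cell markers, 8 were listed in the HT table alone and 3 in both tables. The sum over those each table lists was 143 and 135 FPKM in HT and 46.3 and 39.5 in SUDHL6. LCK, a kinase also found in B cell lymphomas and listed in both, made 136 and 128 of it in HT and 44.5 and 37.7 in SUDHL6. CD3D and CD3G were at the floor in both HT libraries. VIM, the filament of mesenchymal and many blood cells, measured 233 and 222 FPKM in SUDHL6 and 12.5 and 18.5 in HT. It was the only 1 tested of 21 epithelial and stromal markers, of which 15 were not analysed here. The HT table alone listed 3 of them, including LUM at 1.24 and 1.87 FPKM and DCN at 2.03 and 1.71, and the SUDHL6 table alone listed 1. In cell lines, fewer cells with a gene on and less of its RNA per cell cannot be told apart from such bulk values.

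Of 30 neuronal genes, 6 were tested, and the 3 called were all higher in HT, against 13.6% of all genes. They were ENO2, the tubulin TUBB3, at 213 and 233 FPKM against 32.4 and 17.03, and the splicing factor RBFOX2, at 37.3 and 40.3 against 3.47 and 4.57. Of 68 developmental transcription factors, which include many known targets of PRC2, 11 were tested. Of these, 4 were called higher in SUDHL6 and 1 higher in HT, against 8.4% and 13.6% of all genes. Under 1 FPKM in both HT libraries were 4 of the 11, HOXA4 and HOXB4 among them. These 4 passed the filter through SUDHL6 alone, which fixed the direction of their difference. HOXA4, a homeobox gene, measured 3.47 and 4.26 FPKM in SUDHL6 and 0.311 and 0.357 in HT, and HOXB4 was at 3.68 and 2.93 with both HT libraries at the floor. A further 7 of these factors were listed in the SUDHL6 table alone, including HOXA7 at 14.2 and 15.8 FPKM and SOX4 at 10.9 and 11.8. In the HT table alone there were 8, including SOX9 at 12.1 and 13.8 FPKM. Housekeeping genes gave 4 calls among 29 (13.8%), against 22% of all genes. Among those called was VPS29, a subunit of the retromer sorting complex, at 143 and 140 FPKM in HT and 48.1 and 42.8 in SUDHL6.

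Each deposited table keeps only genes that its authors rated detectable, so a gene listed for 1 line alone has a value in that line and none in the other. Of genes spanning 300 bp or more, 1266 stood in the HT table alone and 652 in the SUDHL6 table alone. Most were low: 292 and 215 of them reached a mean of 1 FPKM in DMSO, and 58 and 59 reached 10 FPKM. Highest in the HT table were LOC643037, at 282 and 266 FPKM, and ACTL8, a testis actin-like gene, at 219 and 136. The tetraspanin CD9 followed at 155 and 157 FPKM, GTSF1, a germ cell factor of transposon control, at 115 and 106, and the receptor phosphatase PTPRS at 84.7 and 84.0. LOC100216479, CD33, glycophorin C (GYPC), CAPN13, CHST11, the noncoding RNA CRNDE and SPSB1 completed the leading 12, with means from 40.4 FPKM for SPSB1 to 58.7 FPKM for LOC100216479. Highest in the SUDHL6 table was S100A10, a calcium-binding partner of annexin, at 145 and 131 FPKM. It was followed by KIAA0226L at 92.8 and 110 FPKM, the growth factor BMP7 at 99.9 and 101, FAM9C at 55.7 and 59.9 and the orphan receptor GPR15 at 44.9 and 56.7. MACROD1, IRF4, PYHIN1, the amino acid transporter SLC38A5, NELL2, the homeobox gene CUX2 and CYB5A made up the rest, with means from 36.6 FPKM for CYB5A to 43.1 FPKM for MACROD1. No test and no fold is given for these genes.

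A few stretches of the genome held many genes that differed in the same direction. The genome was divided into windows of 10 Mb (hg19, positions from the deposited tables), of which 200 held at least 20 tested genes. Their median log2 differences, relative to all genes, ran from -1.31 to 1.02 with a standard deviation of 0.36; 3 windows lay at or below -1 and 1 at or above 1. The lowest was chromosome 11 from 110 to 120 Mb, where 61 of 67 genes lay below the median of all genes and 47 (70.1%) were called higher in HT, against 13.6% overall. It holds POU2AF1 and IL10RA, described above, and IL18, an inflammatory cytokine, at 30.6 and 42.2 FPKM in HT and 0.301 and 0.343 in SUDHL6. BCL9L, TTC12, MCAM and IFT46 of the same window had log2 differences from -2.99 for BCL9L to -2.73 for IFT46, while PVRL1, the adhesion receptor nectin-1, went the other way, at 14.6 and 11.9 FPKM in SUDHL6 and 0.639 and 0.568 in HT.

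Chromosome 8 from 20 to 30 Mb was the next lowest, at -1.21, with 41 of 45 genes below the median of all genes and 27 (60.0%) called higher in HT. TNFRSF10B lies there, with C8orf80, at 179 and 190 FPKM in HT and 11.998 and 16.8 in SUDHL6, and the mitotic kinase PBK, at 139 and 140 against 33.2 and 27.8. Chromosome 10 from 70 to 80 Mb followed at -1.01, with 37 of 63 genes called higher in HT, among them the hexokinase HK1. Chromosome 22 from 10 to 20 Mb stood at -0.97 and holds the proapoptotic BID, BCL2L13 and the replication factor CDC45. On chromosome 4, the window from 0 to 10 Mb had a median of 0.92, whereas the 6 other windows with enough genes lay between -0.66 and -0.90.

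The highest windows were chromosome 2 from 120 to 130 Mb, at 1.02 with 20 of 21 genes above the median of all genes, and chromosome 2 from 130 to 140 Mb, at 0.95 with 24 of 32. The first holds DBI, a binder of acyl-CoA esters, at 534 and 448 FPKM in SUDHL6 and 152 and 155 in HT, with C2orf76, SFT2D3, LOC254128, AMMECR1L and WDR33 between 1.10 and 1.53. The second holds CXCR4, whose difference of 5.76 lies far above the window's median, as well as C2orf27A, TMEM163, LOC150776 and, in the opposite direction, the phosphatase PTPN18, at -1.85. Chromosome 6 from 30 to 40 Mb stood at 0.92 and holds PIM1, CDKN1A and HLA-DQA1; 16 of its 45 genes (35.6%) were called higher in SUDHL6, against 8.4% overall. Over whole chromosomes the medians ran from -0.22 for chromosome 22 to 0.46 for chromosome 7, again relative to all genes. The chromosome 6 window from 20 to 30 Mb, which includes the histone clusters, changed sign with the HT library. Its relative median with HT replicate 1 was -0.61 for SUDHL6 replicate 1 and -0.49 for SUDHL6 replicate 2. With HT replicate 2 it was 0.81 and 0.43.

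**Figure D4:**
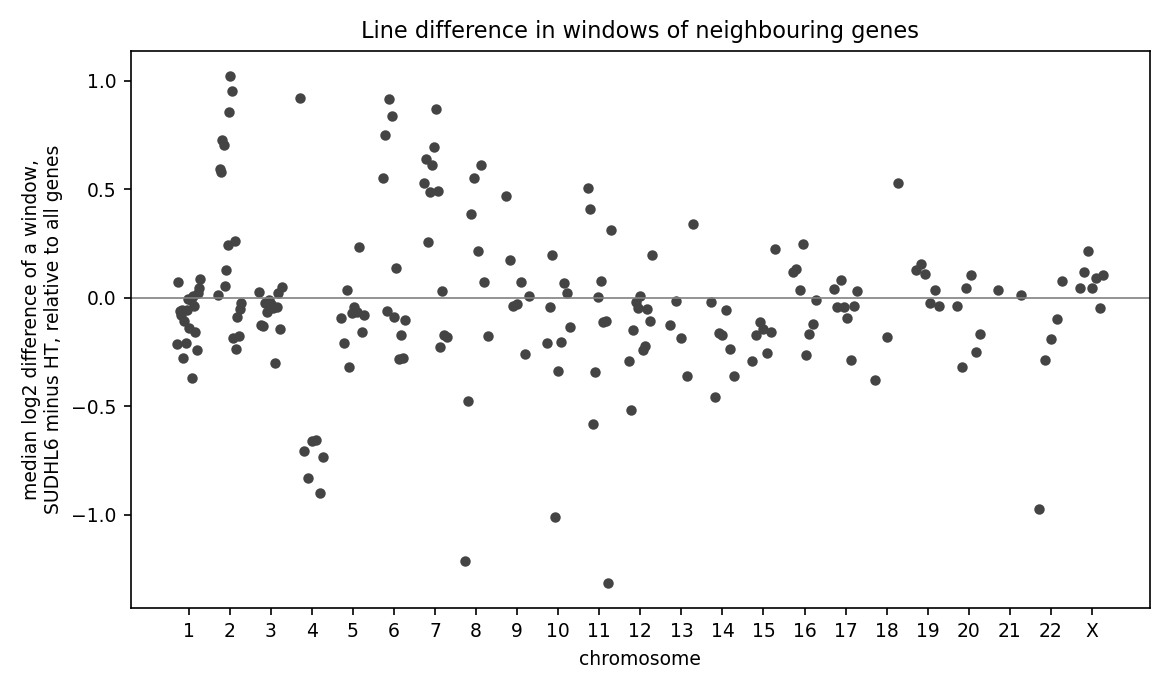
Median log2 difference (SUDHL6 minus HT, relative to all genes, vertical axis) of 200 windows of neighbouring genes, by chromosome (horizontal axis). Each point is a window of 10 Mb with at least 20 tested genes, drawn in its order along the chromosome; most lie near 0, with the lowest, at -1.31 on chromosome 11 and -1.21 on chromosome 8, and the highest, at 1.02 on chromosome 2, standing away from it.

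The line difference was measured again in the iEZH libraries, which share no library with the DMSO ones. There 2282 of 10953 genes (20.8%) were called, 893 (8.15%) higher in SUDHL6 and 1389 (12.7%) higher in HT. Of the 2409 genes called in DMSO, 2403 had the same sign in iEZH and 1868 were called there with the same sign. The leading differences stayed in place: TCF4 differed by -5.63, STAT5A by -5.06, BCL2 by 5.74, LMO2 by 5.28 and CXCR4 by 4.67 with iEZH. The windows on chromosomes 11 and 8 had relative medians of -1.26 and -1.28 there. Testing the change in the line difference itself, iEZH against DMSO, 9 genes (0.0822%) passed an adjusted p of 0.05 in limma. Among the genes named by rule these were PTPN6, ECI2 and ID2. PTPN6 stood at 81.4 and 96.9 FPKM in HT with iEZH and at 64.4 and 77.4 in SUDHL6, so that its difference of -2.42 in DMSO was -0.33 with iEZH. MYC differed by 1.22 in DMSO and by 0.16 with iEZH, and the change in its difference was not called.

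**Figure D5:**
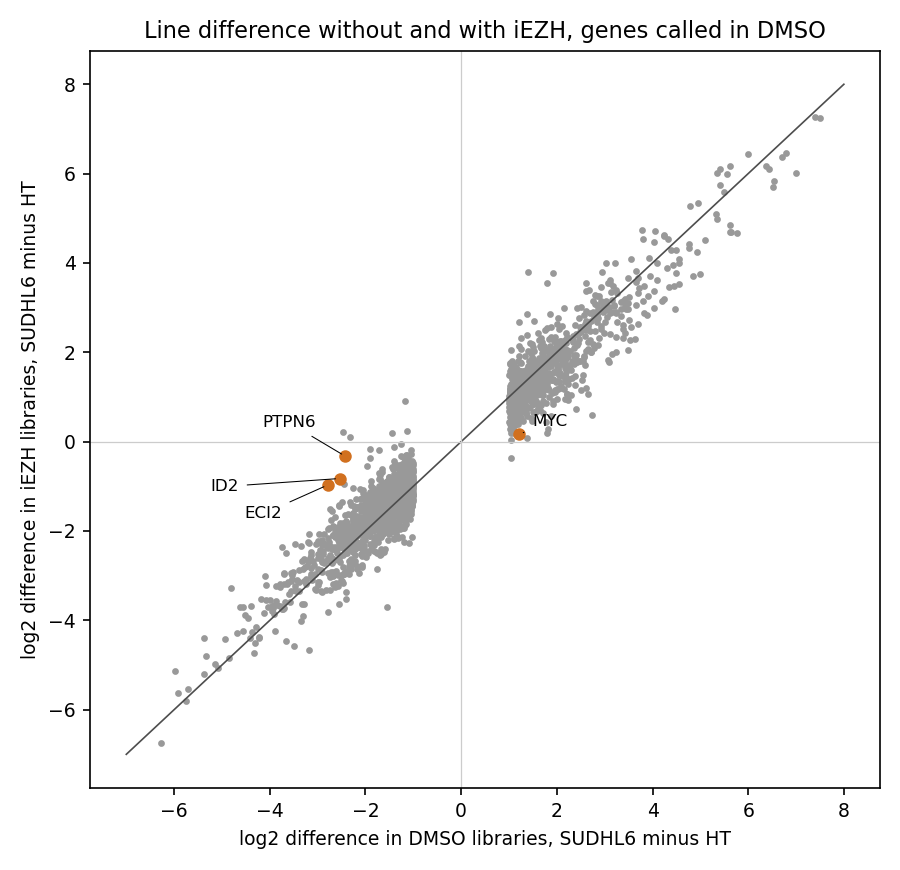
Log2 difference between the lines (SUDHL6 minus HT) in DMSO libraries (horizontal axis) and in iEZH libraries (vertical axis) for the 2409 genes called in DMSO. Points are genes and the diagonal marks equal differences; 2403 points keep their sign, and PTPN6, ECI2, ID2 and MYC lie between the diagonal and 0.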

How the data were processed

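Per the submitters' processing notes, reads were aligned to hg19 with TopHat 1.4.1 and quantified with Cufflinks, whose version is not given in the sources used here; neither are the library kit, strand, annotation or normalization options, so reads of overlapping and antisense genes may be mixed. The authors deposited FPKM per gene symbol in 1 table per line, and per the file headers kept genes rated detectable, from 10 reads, with 50 reads as quantifiable. The deposited FPKM values have a floor of 0.0613 in HT and 0.0712 in SUDHL6. The only counts used were the total read counts of each library, as deposited by the authors in the sample sheets; with no counts per gene, no counting intervals are given.

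The tables were joined by symbol. MARCH2, on 2 lines of the SUDHL6 table, and AASDH, with 1 iEZH value that is not a number, were left out of the join and of the iEZH fits, respectively; genes under 300 bp, on chromosome Y and XIST were left out. Log2(FPKM + 1) values of genes with at least 1 FPKM in 2 of 4 libraries entered limma 3.58.1, run in R 4.3.3 (eBayes with trend, two-sided, no replicate block), on the 4 DMSO libraries, with SUDHL6 minus HT as direction. Fold changes on this scale understate those of low genes, and "fold" of a mean is a ratio of mean FPKM. A gene was called at a Benjamini-Hochberg adjusted p of 0.05 over all 10954 genes and an absolute log2 difference of 1. The change in line difference was the interaction term of a fit of the 8 libraries. Exact tests of 2 against 2 libraries cannot go below p = 0.333. The fits were tested on simulated data.

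The rule for named genes took the 12 largest called differences in each direction without overlap of libraries, up to 4 called members per direction of each of 34 gene lists (or at most 2 of the smallest p), a set of lymphoma genes, the 12 highest genes of each table alone, and up to 6 genes of the 2 highest and 2 lowest windows. Members and lists were chosen with earlier results of these data known. Alternatives were pseudocounts of 0.1 and 0.5, no filter or 5 FPKM, median-ratio and quantile scaling, eBayes without trend or robust, no fold threshold, a replicate block, all 8 libraries in 1 fit, short genes kept, iEZH in place of DMSO, 5 Mb windows and leaving out each library. Promoter CpG content was to be compared, but 79.1% of tested genes matched a promoter entry, under the 80% needed, and that check is void. Some genes and lists that the naming rule covers are not reported here.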

Additional observations from a re-analysis of the deposited data

Results flagged for a closer look

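For 3 named genes the difference between the lines itself changed between DMSO and iEZH, by the interaction term of a limma fit of the 8 libraries (Benjamini-Hochberg over 10953 genes). PTPN6 changed by 2.10 on the log2 scale (± 0.21 SE, adjusted p = 0.0257): it measured 126 and 117 FPKM in HT and 20.2 and 23.6 in SUDHL6 with DMSO, against 81.4 and 96.9 and 64.4 and 77.4 with iEZH. ECI2 changed by 1.82 (± 0.16 SE, adjusted p = 0.0241), at 33.8 and 33.5 FPKM in SUDHL6 with iEZH against 9.21 and 9.39 with DMSO, while HT went from 65.6 and 75.3 to 64.1 and 70.0. ID2 changed by 1.71 (± 0.20 SE, adjusted p = 0.0438), with SUDHL6 at 20.1 and 25.4 FPKM with iEZH against 7.35 and 8.95 with DMSO, and HT at 40.0 and 41.7 against 51.1 and 52.9. In each of these genes HT stayed the higher line with iEZH in both libraries, by a smaller difference, and none of these genes was called there in limma: PTPN6 stood at -0.33 (adjusted p = 0.141), while ECI2 at -0.97 (adjusted p = 0.000792) and ID2 at -0.83 (adjusted p = 0.00324) fell short of the fold threshold.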

How the results depend on the processing

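Without the fold threshold, 6049 genes were called (2363 higher in SUDHL6, 3686 higher in HT), 55.2% of those tested. Under the other alternatives the number of called genes lay between 1975 (5 FPKM filter) and 2952 (pseudocount 0.1). Median-ratio rescaling gave 1129 genes higher in SUDHL6 and 1242 higher in HT, and quantile normalization 1143 and 1211. The replicate numbers are given no meaning by the labels; deviations of replicates 1 from their line means correlated at 0.535 across genes, and a replicate block gave 2433 calls. Of the 202 named genes, 187 were called. EZH2, not called in these settings, stood at -0.044 with iEZH libraries and between -0.062 and 0.12 when a library was left out, so that its sign reversed. MME, also not called, reversed to 0.031 with median-ratio rescaling and 0.035 with quantile normalization, and ranged from -0.30 to 0.064 when a library was left out. CCND3, CD68, CTSS, INSIG1, LAT, PCGF5 and REEP5 lost their call under both rescalings, and 4 to 5 named genes did so when any 1 library was left out. In the iEZH libraries 21 named genes were no longer called, MYC, CD79B, CTSS, PTPN6, ECI2 and ID2 among them. At a mean of 5 FPKM, 102 genes were listed for HT alone and 86 for SUDHL6 alone. The chromosome 11 window ranged from -1.44 to -1.36 when a library was left out, stood at -1.26 with iEZH, and at -1.58 and -1.20 in its 5 Mb parts; the second 5 Mb part of the chromosome 8 window stood at -1.38. The cause of these shifts was not tested. With 2 libraries per line, the number of libraries limits the precision, and values near the floor cannot show how far below it a gene lies. Leaving out single libraries for the genes listed in 1 table, and for the windows, was chosen after seeing the data, as were the iEZH values of the windows.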
